A study of Homo sapiens with 12 samples.

Results

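The experiment examined here is the induction of wild-type SOX9 in LS180 cells, which are an established line from a human colorectal cancer. It comprises 4 of the 12 RNA-sequencing libraries of the series. All 4 come from the LS180 derivative that carries a doxycycline-inducible, V5-tagged wild-type SOX9. In 2 libraries the cells received no doxycycline, and in the other 2 they were treated with 0.5 µg/ml doxycycline for 24 h. The members were chosen by these labels and not by any measured value. The remaining 8 libraries are of the same design in lines carrying GFP or M303, a shortened form of SOX9, with 2 libraries each without and with doxycycline. All 6 groups share the LS180 background, and the uninduced cells carry the construct too. Because every construct sits in a separate line, construct and line cannot be told apart, and whether a line is 1 clone or a pool is not given in the sources used here. Nothing in the labels says that the duplicates were separate cultures, so p-values measure only how far these libraries spread, and that spread may be technical.

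SOX9 is an HMG-box transcription factor. It bends DNA and binds short sequences with a core of ACAAAG or ACAATG. In the intestine it is expressed at the crypt base, in stem and progenitor cells and in Paneth cells, and it is known to be required for Paneth cell formation. Outside the gut it directs cartilage formation, where collagen and matrix genes are among its known targets. Paneth, goblet and stem cell markers have been the usual readouts of SOX9 in intestinal cells. The questions here were which other functions the raised and lowered genes have, and how the changes are spread over large and small effects and over abundant and scarce transcripts.

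The 4 libraries held 37218004 and 36168243 counts without doxycycline and 48529770 and 31317894 counts with it. SOX9 stood at 357 and 381 CPM without doxycycline and 712 and 761 CPM with it (log2 fold change 1.00, SE 0.07, adjusted p = 4.11e-08), a count that may hold both endogenous and construct transcripts. How far the construct carries sequence that the annotation covers is not given in the sources used here. CPM gives a gene's count relative to its library's total after scaling with edgeR's TMM factors. A gene is called here at a Benjamini-Hochberg adjusted p under 0.05 in edgeR's quasi-likelihood test over 18219 genes. LYZ, the Paneth cell lysozyme, stood at 56.7 and 46.9 CPM without doxycycline and 590 and 579 CPM with it, and MUC2, the goblet cell mucin, at 62.7 and 69.3 CPM without doxycycline and 20.7 and 24.8 CPM with it. Their log2 fold changes were 3.50 for LYZ and -1.54 for MUC2, and the 2 groups of each lay far apart. In such bulk RNA a change in the share of cells of a type and a change in RNA per cell cannot be told apart. The libraries showed the markers of colorectal epithelium: the summed level of 8 such markers was between 10278 and 11895 CPM without doxycycline and between 9908.2 and 9951.8 CPM with it. Of these 8, VIL1, CDX1 and CDX2 fell, as described with their groups, and the other 5 were not called. Markers of other cell types were near 0. The summed level of 7 fibroblast markers was at most 2.9216 CPM, that of 6 blood and immune markers at most 3.9355 CPM with CD3E at 0 in all 4 libraries, and that of 4 endothelial markers at most 0.32117 CPM.

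Induction of SOX9 changed 541 genes, which is 2.97% of the genes tested. Of these, 330 rose (1.81%) and 211 fell (1.16%). The split depends on the method, with 411 higher and 361 lower by DESeq2, and 412 higher and 338 lower without a filter on low counts. All 541 had no overlap in CPM between the uninduced and the induced libraries. That by itself is common with 2 libraries a group, since 44.7% of all tested genes showed no overlap. Most changes were moderate. Among the genes that rose, 161 changed by less than 1.5-fold, 89 by 1.5- to 2-fold, 51 by 2- to 4-fold, 16 by 4- to 8-fold and 13 by at least 8-fold. Of those that fell, 111 changed by less than 1.5-fold, 62 by 1.5- to 2-fold, 34 by 2- to 4-fold, 3 by 4- to 8-fold and 1 by at least 8-fold. At 2-fold or more there were 80 higher genes (0.439% of those tested) and 38 lower genes (0.209%). The number of calls leans on single libraries. It was 231 without the second induced library, 270 without the first, 301 without the second uninduced library and 527 without the first uninduced library, where 252 genes were higher and 275 lower. In all, 182 genes (121 higher and 61 lower) stayed called whichever of the 4 libraries was left out, and these are called stable below.

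**Figure D1:**
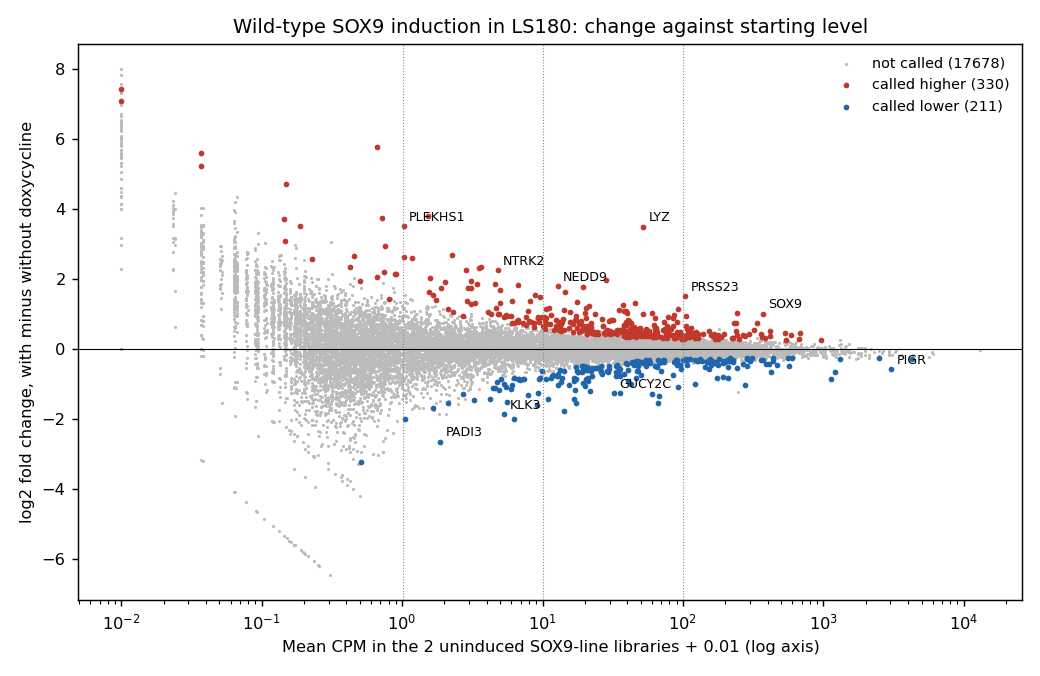
Each point is 1 of the 18219 genes tested, placed by its mean CPM in the 2 uninduced SOX9-line libraries (log axis, 0.01 added) and by its log2 fold change with against without doxycycline (vertical axis). Red points are the 330 genes called higher, blue points the 211 called lower and grey points the rest; the large fold changes lie to the left, at low starting levels.

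The size of the called changes differed with the starting level of the gene, taken as the mean CPM of the uninduced SOX9-line libraries. That mean is also the denominator of the fold change. A gene near 0 there can have entered the test through another group, the induced one included, and it cannot be called lower, so the split and the fold sizes at low levels are in part set by this classing. Below 1 CPM, 20 of 5091 tested genes rose and 1 fell, with a median log2 fold change of 0.20 over all 5091. Between 1 and 10 CPM, 61 of 3599 rose and 31 fell, with a median log2 fold change of 1.15 among the raised genes and -1.12 among the lowered ones. From 10 to 100 CPM, 190 of 7123 rose and 112 fell, with medians of 0.54 and -0.62. At 100 CPM and over, 59 of 2406 rose and 67 fell, with medians of 0.40 and -0.36. The precision of the fold change differed in the same order, with a median standard error of 0.99 on the log2 scale below 1 CPM, 0.30 between 1 and 10, 0.11 between 10 and 100 and 0.08 at 100 CPM and over. The share called and the size of the called changes cannot be read apart from this precision.

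The share of tested genes that rose was 0.393%, 1.70%, 2.67% and 2.45% from the lowest to the highest level, and the share that fell was 0.0196%, 0.861%, 1.57% and 2.79%. With the starting level divided by gene length (RPKM), the shares that rose at under 1, 1 to 10, 10 to 100 and at least 100 RPKM were 0.825%, 2.55%, 2.27% and 1.10%, and those that fell were 0.206%, 1.19%, 2.38% and 4.11%. The summed gain of the 330 raised genes was 10329 CPM on a summed starting level of 22593 CPM, and their 10 largest gains made up 24.6% of it. The 211 lowered genes fell by 8440.5 CPM in sum from 32255 CPM, with 47.3% in the 10 largest losses. LYZ, SOX9, HMGCS1, CEMIP and MUC13 had the largest gains, and PIGR, ACTG1, AGR2, LGALS4 and ENO1 the largest losses.

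**Figure D2:**
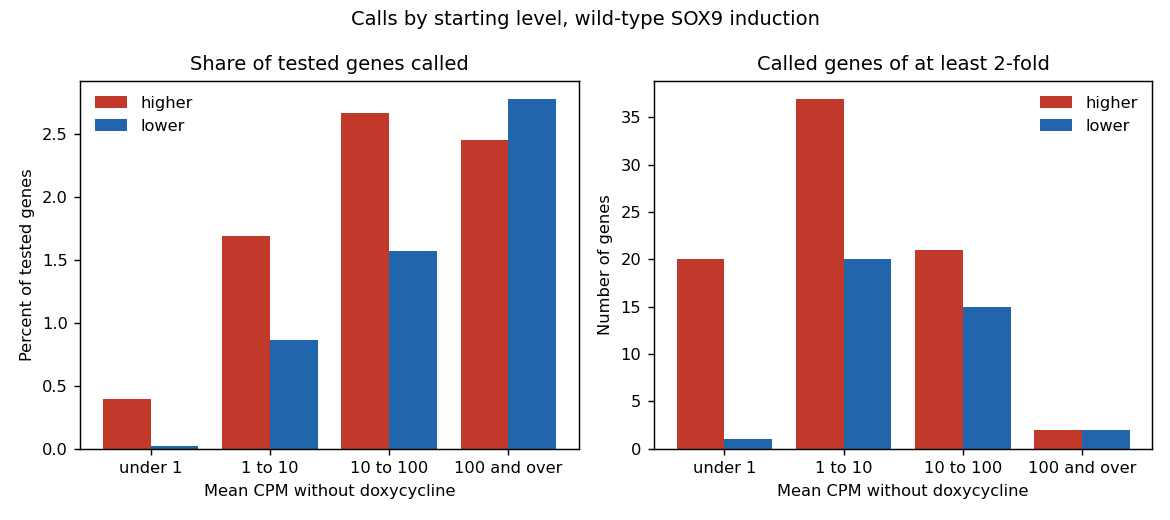
Left, the percent of tested genes called higher (red) and lower (blue) in each class of starting CPM; right, the number of genes called with at least a 2-fold change. The share called lower rises from 0.0196% below 1 CPM to 2.79% at 100 CPM and over, while only 2 genes in each direction changed by 2-fold or more in the highest class.

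The genes named next by starting level are those with the largest fold changes outside the Paneth, goblet and stem cell lists. Among genes that were nearly silent before induction, the largest fitted changes rest on few reads. SAMD11 had 0 and 0 counts without doxycycline and 15 and 28 counts with it, at least a 12.9-fold rise against a floor of 3 counts over the uninduced group. It overlaps NOC2L on the opposite strand, and the counting did not use strand. MORN3 went from 0 and 0 counts to 20 and 16 counts, at least 10.8-fold. CD180, a surface protein of B cells and macrophages, went from 2 and 0 counts to 78 and 44 counts, a ratio of 54.8 with a 95% counting interval of 14.8 to 458. KLRK1-AS1, an antisense transcript, went from 2 and 0 to 77 and 22 counts, a ratio of 44.5 with an interval of 12 to 372. These 4 genes lost their call when a single library was left out, with adjusted p values up to 0.292 for SAMD11, 0.211 for MORN3, 0.343 for CD180 and 0.253 for KLRK1-AS1. The intervals and the floor cover counting error only, and they treat every count as separate. Mates were counted singly, so 1 read pair can give 2 counts, and the intervals are too narrow for that reason. In the uninduced GFP line SAMD11 stood at 0.329 and 0.222 CPM, MORN3 at 0.329 and 0.194 CPM and KLRK1-AS1 at 0.362 and 0.472 CPM. Their induced SOX9-line libraries held 0.304 and 0.88 CPM, 0.406 and 0.503 CPM, and 1.56 and 0.691 CPM. CD180 was at 0.0658 and 0 CPM in the uninduced GFP line. The folds thus hold against the uninduced SOX9 line only, and for none of the 4 was the difference from the GFP line called. ART3, a member of the ADP-ribosyltransferase family, was stable and stood at 0.0268 and 0.253 CPM without doxycycline and 3.9 and 3.55 CPM with it (log2 fold change 4.72, SE 0.83, adjusted p = 0.00182). TCN1, which encodes the vitamin B12-binding protein haptocorrin, also came from under 1 CPM and stood at 0.964 and 0.451 CPM without doxycycline and 9.09 and 9.8 CPM with it (log2 fold change 3.73, SE 0.42, adjusted p = 7.56e-06). For both ART3 and TCN1, both induced libraries lay above both uninduced ones.

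At a starting level of 1 to 10 CPM the largest rises were in PLEKHS1, FILIP1L, EDAR, IFI6 and CYB5R2, and all 5 were stable. PLEKHS1, a pleckstrin homology domain protein, stood at 0.964 and 1.07 CPM without doxycycline and 11.9 and 11.1 CPM with it (log2 fold change 3.50, SE 0.30, adjusted p = 2.15e-07). The duplicates of each group were close to each other and the groups were far apart. FILIP1L, a filamin A-interacting-like protein, stood at 0.803 and 1.24 CPM without doxycycline and 5.84 and 6.66 CPM with it, and EDAR, the ectodysplasin receptor of the TNF receptor superfamily, at 1.39 and 0.957 CPM without doxycycline and 6.69 and 7.6 CPM with it. Their log2 fold changes were 2.61 (SE 0.37) and 2.60 (SE 0.35). IFI6, an interferon-inducible mitochondrial protein, stood at 4.34 and 2.96 CPM without doxycycline and 18.7 and 18.1 CPM with it (log2 fold change 2.33, SE 0.22, adjusted p = 6.53e-07). CYB5R2, a cytochrome b5 reductase, stood at 3.53 and 3.52 CPM without doxycycline and 17.6 and 17.4 CPM with it (log2 fold change 2.31, SE 0.20, adjusted p = 2.93e-07). Of 40 interferon-stimulated genes tested, 2 rose and 2 fell (10%): IFI27 also rose, and OAS1 and ISG15 fell from 34.7 and 35.5 CPM to 23.6 and 24.8 CPM and from 52.3 and 56.9 CPM to 40.1 and 38.2 CPM. The calls of IFI27, OAS1 and ISG15 were each lost when 1 library was left out. Neither IFI6's nor CYB5R2's induced and uninduced libraries came near each other.

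Genes that started between 10 and 100 CPM and rose most were APCDD1, NEDD9, SLC6A14, SMOC1 and PLCB4. APCDD1, a membrane-bound inhibitor of WNT signalling, stood at 25.4 and 31.3 CPM without doxycycline and 110 and 113 CPM with it (log2 fold change 1.98, SE 0.11, adjusted p = 6.15e-10). NEDD9, a docking protein of focal adhesions, stood at 12.3 and 13.2 CPM without doxycycline and 45.3 and 43.1 CPM with it (log2 fold change 1.79, SE 0.12, adjusted p = 1.03e-08). SLC6A14, a sodium- and chloride-dependent carrier of neutral and cationic amino acids, stood at 21.6 and 17.4 CPM without doxycycline and 69.4 and 63.2 CPM with it (log2 fold change 1.77, SE 0.12, adjusted p = 9.93e-09). These 3 rises were large against the gap between duplicates. SMOC1, a secreted calcium-binding matrix protein, rose from 15.5 and 13.6 CPM to 43.4 and 46.6 CPM, and PLCB4, a phospholipase C that acts downstream of G proteins, from 20.1 and 15 CPM to 44.9 and 43.7 CPM. All 5 were stable, and NEDD9 overlaps an unnamed gene on the opposite strand.

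At 100 CPM and over the leading rises apart from SOX9 were in PRSS23, HMGCS1, CEMIP2 and IVNS1ABP. PRSS23, a secreted serine protease, stood at 102 and 106 CPM without doxycycline and 298 and 294 CPM with it (log2 fold change 1.51, SE 0.07, adjusted p = 7.2e-11). Of all genes named here it had the smallest adjusted p after LYZ; it overlaps FZD4 on the opposite strand. HMGCS1, the enzyme that supplies the mevalonate pathway, stood at 249 and 232 CPM without doxycycline and 493 and 490 CPM with it (log2 fold change 1.03, SE 0.08, adjusted p = 9.83e-08). That is just past 2-fold, at a level where the median log2 fold change of raised genes was 0.40. CEMIP2, a hyaluronidase at the cell surface, rose from 230 and 234 CPM to 374 and 400 CPM, and its relative CEMIP, which promotes hyaluronan breakdown, from 657 and 694 CPM to 874 and 957 CPM. IVNS1ABP, a kelch-repeat protein, rose from 244 and 236 CPM to 408 and 393 CPM, and MUC13, a transmembrane mucin of the apical surface, from 352 and 324 CPM to 570 and 552 CPM. Log2 fold changes of these 4 genes were 0.74, 0.44, 0.74 and 0.73 in that order, each with an SE of 0.07.

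Among lowered genes that started between 1 and 10 CPM, the largest falls were in PADI3, FABP2, KLK3, CASP5 and KRT20. FABP2, the intestinal fatty acid-binding protein, fell from 6.91 and 5.58 CPM to 1.38 and 1.76 CPM (log2 fold change -2.00, SE 0.25, adjusted p = 3.12e-05). KLK3, a kallikrein-related peptidase best known from prostate, fell from 5.65 and 5.04 CPM to 1.42 and 1.51 CPM (log2 fold change -1.87, SE 0.26, adjusted p = 0.000137), and KRT20, a keratin of differentiated intestinal surface cells, from 9.85 and 8.5 CPM to 2.78 and 3.33 CPM (log2 fold change -1.60, SE 0.21, adjusted p = 6.26e-05). The groups of these 3 genes lay far apart and their calls were stable. PADI3, which converts arginine to citrulline in hair follicle proteins, had the largest fold among them and fell from 2.09 and 1.63 CPM to 0.325 and 0.251 CPM (log2 fold change -2.66, SE 0.58, adjusted p = 0.0118). CASP5, an inflammatory caspase, fell from 1.55 and 1.75 CPM to 0.609 and 0.377 CPM (adjusted p = 0.0299). Both were lost when a library was left out, with an adjusted p up to 0.139 for PADI3 and 0.351 for CASP5, each without the second induced library.

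Between 10 and 100 CPM large falls were in NEURL1, ATP2A3, ANXA13 and GUCY2C, all stable. NEURL1, a ubiquitin ligase that acts on Notch ligands, stood at 16 and 18.5 CPM without doxycycline and 6.33 and 5.4 CPM with it (log2 fold change -1.55, SE 0.16, adjusted p = 1.95e-06). ATP2A3, a calcium pump of the endoplasmic reticulum, fell from 15.6 and 18 CPM to 6.33 and 6 CPM, and ANXA13, an annexin of the intestinal epithelium, from 11.5 and 10.5 CPM to 4.02 and 4.15 CPM. GUCY2C, the guanylate cyclase C receptor for guanylin and uroguanylin, stood at 31.5 and 32.9 CPM without doxycycline and 12.4 and 14.3 CPM with it (log2 fold change -1.27, SE 0.11, adjusted p = 2.15e-07).

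At 100 CPM and over the largest falls were in IL33, SLC6A20, GREM1, LGALS3 and LGALS4, again all stable. IL33, an alarmin of the interleukin-1 family, stood at 127 and 116 CPM without doxycycline and 61.3 and 59.2 CPM with it (log2 fold change -1.01, SE 0.09, adjusted p = 5.84e-07). SLC6A20, a proline carrier of the apical membrane, stood at 200 and 221 CPM without doxycycline and 118 and 117 CPM with it (log2 fold change -0.84, SE 0.08, adjusted p = 4.49e-07). GREM1, a secreted antagonist of bone morphogenetic proteins, stood at 176 and 171 CPM without doxycycline and 96.5 and 99.7 CPM with it (log2 fold change -0.82, SE 0.07, adjusted p = 3.7e-07). Each of the 3 had both induced libraries well under both uninduced ones, and GREM1 shares its locus with GREM1-AS1 on the opposite strand. The galectins LGALS3 and LGALS4, which bind cell-surface sugars, fell from 428 and 426 CPM to 267 and 266 CPM and from 1238 and 1166 CPM to 752 and 758 CPM. By amount the largest single loss was that of PIGR, the receptor that carries polymeric immunoglobulin across the epithelium, which stood at 2806 and 3280 CPM without doxycycline and 2051 and 2023 CPM with it (log2 fold change -0.58, SE 0.07, adjusted p = 4.19e-05). Its uninduced libraries were 3043 ± 335 CPM (SD, n = 2) and its induced ones 2037 ± 19.9 CPM. The next largest losses of housekeeping type, ACTG1 (cytoplasmic actin) and ENO1 (enolase), had log2 fold changes of -0.29 and -0.27 and lost their calls without the second uninduced library, at adjusted p = 0.254 and 0.317.

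**Figure D3:**
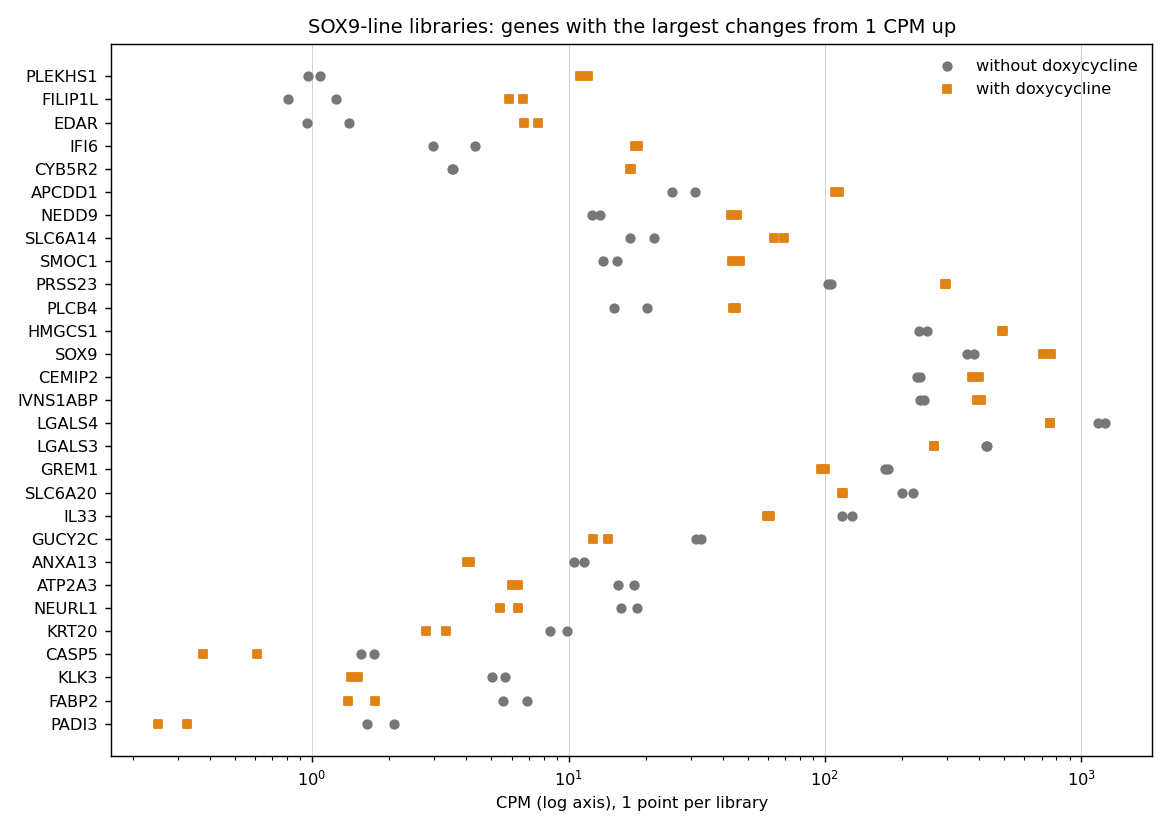
Level in each of the 4 SOX9-line libraries (CPM, log axis, 1 point per library; grey circles without and orange squares with doxycycline) of genes with the largest fold changes in each direction at starting levels of 1 CPM and over. Both induced libraries lie on 1 side of both uninduced libraries for every gene shown. PLEKHS1 has the largest rise among them and PADI3 the largest fall.

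Functions of the changed genes were counted in groups set by gene symbol roots or short lists. They were chosen with earlier results of these data known, so a high share in a list can be in part set by the choice. These groups also hold pseudogenes and antisense genes that share a root, and members of large families may lose reads that map to several of them. The counts keep members of the Paneth, goblet and stem cell lists. Among these are ETS2, CREB3L1, ATOH1 and FOXA3 in transcription factors, SMOC2 in matrix genes, and CAPN9 and KLK1 in peptidases. Others are SPINK4 in peptidase inhibitors, ST6GALNAC1 in glycosyltransferases, TNFRSF19 in the TNF receptor group and DLL4 in the Notch pathway. The background for each count is the 2.97% of tested genes that were called. That share is lowered by scarce and noncoding genes. It was 3.87% among protein-coding genes, and at a starting level of 100 CPM and over 2.45% rose and 2.79% fell. Groups with shares near these, such as the solute carriers (4.96%), are not set apart by their counts. Genes of the groups named below without a leading rank were in part chosen after their values were seen. Leaving out single libraries lowers these counts: the stable members were 6 higher and 4 lower transcription factors, 4 and 1 peptidases, 5 and 0 matrix genes, 1 and 6 brush border genes, and 1 and 1 cholesterol genes. LYZ, HMGCS1, CEMIP, GUCY2C, ETV4, KLK6, MME, KCNJ2, SLC7A11, NKD1, JAG1, CDC42EP3, RASGRF1, ITGB8, CD74, BIRC3, KLRK1-AS1, NOD2, OAS1, ENO1, CDK6 and CCND2 are among those that overlap an exon of a gene on the opposite strand. Reads of such pairs are not told apart by strand. P2RY2 and CDH11 each overlap an unnamed gene on the same strand.

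Transcription factors changed in both directions, with 10 of 450 tested members higher and 15 lower (5.56%). The stable rises beside SOX9 were in RUNX1, EHF, FOXQ1, ETS2 and ID4. RUNX1, a runt-domain factor, stood at 21.3 and 19.8 CPM without doxycycline and 46 and 45.2 CPM with it (log2 fold change 1.15, SE 0.11, adjusted p = 5.84e-07). EHF, an epithelial ETS factor, rose from 424 and 412 CPM to 592 and 586 CPM, and FOXQ1, a forkhead factor, from 79.1 and 102 CPM to 156 and 150 CPM. ID4, an inhibitor of basic helix-loop-helix factors, rose from 9.42 and 9.21 CPM to 16.5 and 17.9 CPM. Among the lowered factors 4 were stable: CREB3L1, the goblet cell factor ATOH1, KLF4 and ETV4. KLF4, a zinc-finger factor of differentiating epithelium, stood at 50.9 and 49.6 CPM without doxycycline and 30 and 29.3 CPM with it (log2 fold change -0.76, SE 0.10, adjusted p = 4.04e-05). ETV4, an ETS factor induced by growth factor signalling, fell from 151 and 157 CPM to 104 and 104 CPM (log2 fold change -0.57, SE 0.08, adjusted p = 7.06e-05). The intestinal identity factors CDX1 and CDX2 fell from 215 and 272 CPM to 163 and 170 CPM and from 159 and 194 CPM to 124 and 132 CPM. Both calls were lost without the second uninduced library and also without the first induced library. That of CDX1 was lost without the second induced library as well. Of 478 ZNF genes, 10 rose and 0 fell (2.09%), but none of the 10 was stable.

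Genes of signalling at the cell surface were called in both directions, in groups that mostly held few calls. Of 45 receptor tyrosine kinases and TGF-beta superfamily receptors, 4 rose and 1 fell (11.1%). NTRK2, the receptor for brain-derived neurotrophic factor, stood at 3.96 and 5.6 CPM without doxycycline and 23.1 and 22.1 CPM with it (log2 fold change 2.24, SE 0.21, adjusted p = 6.4e-07), and TGFBR3, the TGF-beta co-receptor betaglycan, at 40.2 and 42 CPM without doxycycline and 72.3 and 71.2 CPM with it (log2 fold change 0.80, SE 0.10, adjusted p = 2.29e-05). NTRK2 was among the scarce transcripts before induction and TGFBR3 was not. In the TNF receptor and ligand superfamily 3 of 36 rose and 0 fell (8.33%), namely EDAR, TNFRSF11A and TNFRSF19. EDAR and TNFRSF11A were stable and TNFRSF19 was not. TNFRSF11A, known as RANK, stood at 57.9 and 68.9 CPM without doxycycline and 117 and 116 CPM with it (log2 fold change 0.88, SE 0.09, adjusted p = 1.53e-06). G protein-coupled receptors had 4 higher and 6 lower members of 110 (9.09%). The alpha-2 adrenergic receptors ADRA2A and ADRA2C rose from 10.1 and 11 CPM to 25.8 and 20.7 CPM and from 8.75 and 11 CPM to 17.6 and 19.7 CPM, and the nucleotide receptor P2RY2 fell from 8.62 and 9.8 CPM to 3.9 and 3.68 CPM. All 3 calls were stable. Of 120 growth factors and secreted or intracellular antagonists, 8 rose and 4 fell (10%). Among these NKD1, an intracellular inhibitor of WNT signalling, stood at 87.3 and 96.8 CPM without doxycycline and 188 and 218 CPM with it (log2 fold change 1.14, SE 0.10, adjusted p = 2.15e-07), and DUSP10, a phosphatase of MAP kinases, at 8.91 and 7.46 CPM without doxycycline and 19.6 and 22.6 CPM with it (log2 fold change 1.36, SE 0.16, adjusted p = 1.18e-05). These and APCDD1 were the stable rises of the group, and GREM1 was its stable fall. Of 68 cytokines, chemokines and their receptors, 2 rose and 1 fell (4.41%), a share near the background. Among these IL17RD, a receptor-like protein that restrains FGF signalling, rose from 12.9 and 15.7 CPM to 30.4 and 31 CPM. The Notch ligand JAG1 rose from 238 and 241 CPM to 334 and 346 CPM, with 3 higher and 2 lower of 31 Notch pathway genes. CDC42EP3, an effector of CDC42, rose from 20.6 and 19.6 CPM to 41.9 and 39.7 CPM, and RASGRF1, an exchange factor for Ras, rose from 1.95 and 2.06 CPM to 7.38 and 7.76 CPM, both stable.

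Carriers and channels of the membrane changed in both directions. Of 282 solute carriers, 8 rose and 6 fell (4.96%). Beside SLC6A14, stable rises were in SLC5A1, the sodium-glucose cotransporter of the brush border, which stood at 23 and 24.2 CPM without doxycycline and 48 and 45.3 CPM with it (log2 fold change 0.99, SE 0.11, adjusted p = 7.11e-06), and in SLC7A11, the cystine-glutamate exchanger, which rose from 113 and 103 CPM to 152 and 165 CPM. SLC6A20 had the only stable fall in this group. Ion channels had 5 higher and 2 lower members of 116 (6.03%). The potassium channels KCNN4, activated by calcium, and KCNJ2, an inward rectifier, rose from 38.4 and 41.4 CPM to 81.8 and 79.7 CPM and from 9.21 and 8.56 CPM to 24.2 and 27.2 CPM. Their log2 fold changes were 1.02 (SE 0.10) and 1.53 (SE 0.15). CFTR, the chloride channel, rose from 99 and 99 CPM to 120 and 121 CPM (log2 fold change 0.28, SE 0.07, adjusted p = 0.0394), a call that was lost whichever of the 4 libraries was left out; CFTR overlaps CFTR-AS1 on the opposite strand. Of 40 ABC transporters ABCC4, an exporter of cyclic nucleotides and other organic anions, was the only one called, from 21.3 and 19.4 CPM to 37.6 and 37.7 CPM (log2 fold change 0.89, SE 0.11, adjusted p = 2.11e-05). It stood at a log2 fold change of 0.64 in the GFP line with doxycycline as well.

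Peptidases had 13 higher and 7 lower members of 125 (16%). Stable rises beside PRSS23 were in KLK6, MME and MMP14. KLK6, a kallikrein-related peptidase, stood at 53.5 and 49.9 CPM without doxycycline and 106 and 100 CPM with it (log2 fold change 1.00, SE 0.09, adjusted p = 2.31e-07), so that KLK6 rose while KLK3 fell. MME, the membrane peptidase neprilysin, rose from 297 and 293 CPM to 400 and 395 CPM, and MMP14, a membrane-anchored matrix metalloproteinase, from 63.9 and 67.4 CPM to 89.4 and 92 CPM. Of 12 cathepsins tested, which are mostly proteases of the lysosome, 5 rose and 0 fell. These were CTSB, CTSZ, CTSV, CTSC and CTSH, with log2 fold changes of 0.36, 0.39, 0.65, 0.32 and 0.40. They were singled out after their values were seen, and every one of the 5 lost its call without at least 1 library. The 7 cathepsins not called were CTSA, CTSD, CTSE, CTSF, CTSK, CTSO and CTSS, and the median over all 12 was 0.38. Of 36 peptidase inhibitors 2 rose and 2 fell (11.1%), and both falls were stable, among them that of the goblet cell gene SPINK4. TIMP3, which blocks metalloproteinases, rose from 22 and 19.8 CPM to 31.9 and 34.2 CPM (log2 fold change 0.66, SE 0.11, adjusted p = 0.00106).

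Matrix and adhesion genes mostly rose among those called. Of 73 extracellular matrix genes, 8 rose and 2 fell (13.7%). VCAN, the large proteoglycan versican, stood at 23 and 19.5 CPM without doxycycline and 46.3 and 53.7 CPM with it (log2 fold change 1.23, SE 0.12, adjusted p = 9.85e-07), and COL9A3, a chain of the cartilage collagen IX, at 3.8 and 3.01 CPM without doxycycline and 13.1 and 11.3 CPM with it (log2 fold change 1.84, SE 0.26, adjusted p = 0.000136). CCN2, a matricellular protein, rose from 16.9 and 16.9 CPM to 28.9 and 31 CPM. All 3 overlap a gene on the opposite strand (VCAN-AS1, TCFL5 and an unnamed gene), and all 3 were stable. Integrins had 3 higher members of 24 (12.5%), of which ITGB8, whose product activates latent TGF-beta, was stable and rose from 9.9 and 10.7 CPM to 17.3 and 21.3 CPM. Cadherins and protocadherins had 4 higher members of 64 (6.25%), among them CDH11, a cadherin known from mesenchyme, which rose from 43.1 and 45.8 CPM to 68.3 and 68.6 CPM. The tight junction gene CLDN1 rose from 41.8 and 39.2 CPM to 68.5 and 74 CPM (log2 fold change 0.81, SE 0.09, adjusted p = 5.31e-06), the only one called of 22 in its group. Of 58 keratins, KRT6B, a keratin of stressed squamous epithelium, rose from 4.2 and 5.74 CPM to 15.6 and 16.4 CPM, and KRT4, of mucosal squamous epithelium, fell from 16.4 and 17.3 CPM to 8.91 and 10.2 CPM; KRT6A also rose and KRT20 also fell. The call of KRT6A was not stable. KRT6A and KRT6B are close in sequence, so their counts are uncertain. CD74, the invariant chain that accompanies MHC class II proteins, rose from 6.21 and 7.07 CPM to 24.1 and 22.7 CPM (log2 fold change 1.82, SE 0.18, adjusted p = 9.08e-07), the only one called of 17 antigen presentation genes.

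Brush border and microvillus genes mostly fell where they were called, with 2 of 31 higher and 8 lower (32.3%). Their median log2 fold change was -0.15. It was 0.01 over all tested genes and -0.06 over those that started at 100 CPM and over. The mitochondrially encoded genes, with 0 called, had a median of -0.20. The motor proteins MYO1A and MYO7B and the scaffold ANKS4B, which links microvilli, fell from 18.4 and 21.9 CPM to 9.03 and 10.3 CPM, from 65.9 and 74.5 CPM to 43.8 and 46.1 CPM and from 37.3 and 39.3 CPM to 24.3 and 22.1 CPM. These 3, GUCY2C, LGALS3 and LGALS4 were stable. LGALS3 and LGALS4 are galectins that are also counted in another group. VIL1, the actin bundler villin, fell from 413 and 460 CPM to 356 and 364 CPM (adjusted p = 0.0446), a call that was lost without either induced library and without the second uninduced one, at adjusted p up to 0.409. SLC5A1 and FSCN1, an actin bundler of filopodia, were the members that rose. MYO1A overlaps TAC3 on the same strand.

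In lipid handling 2 of 51 genes rose and 4 fell (11.8%). The liver-type fatty acid-binding protein FABP1 fell from 5.51 and 5.66 CPM to 1.91 and 2.01 CPM (log2 fold change -1.51, SE 0.26, adjusted p = 0.00109), alongside FABP2. Among 24 genes of cholesterol synthesis and its control, 1 rose and 7 fell (33.3%). The group median was -0.15, beside -0.06 over all tested genes that started at 100 CPM and over. HMGCS1 was the one that rose, and INSIG1, a sterol sensor of the endoplasmic reticulum, was the stable fall, from 399 and 420 CPM to 296 and 307 CPM (log2 fold change -0.44, SE 0.07, adjusted p = 0.000296). Detoxification enzymes had 3 higher and 6 lower members of 145 (6.21%). AKR1B10, an aldo-keto reductase of retinal and lipid aldehydes, stood at 41.5 and 43.6 CPM without doxycycline and 25 and 17.5 CPM with it (log2 fold change -0.99, SE 0.14, adjusted p = 0.000111), and CYP2S1, a cytochrome P450, fell from 193 and 224 CPM to 143 and 147 CPM. The induced duplicates of AKR1B10 were further apart than its uninduced ones, yet below both. Glycosyltransferases and sulfotransferases had 5 higher and 5 lower members of 110 (9.09%), and ST3GAL4, a sialyltransferase, rose from 37.3 and 38.7 CPM to 60.5 and 60.1 CPM. In amino acid and one-carbon metabolism 3 of 46 rose and 1 fell (8.7%). SAT1, which acetylates spermidine and spermine, rose from 114 and 95.7 CPM to 168 and 162 CPM, and CTH, the cystathionine gamma-lyase that makes cysteine, fell from 34.6 and 32.4 CPM to 22.4 and 20.2 CPM. In innate and mucosal defence 3 of 29 rose and 4 fell (24.1%). The largest change among them was in NOD2, an intracellular sensor of bacterial peptidoglycan, which rose from 0.99 and 0.788 CPM to 3.96 and 3.93 CPM (log2 fold change 2.14, SE 0.40, adjusted p = 0.00311). The complement regulators CD46 and CD59 rose from 558 and 500 CPM to 720 and 721 CPM and from 62.1 and 62.3 CPM to 82.3 and 83.9 CPM. These 3 calls were lost when 1 library was left out, at adjusted p up to 0.0543 for NOD2, 0.06 for CD46 and 0.121 for CD59. BIRC3, an inhibitor of apoptosis and regulator of NF-kappaB signalling, fell from 17.4 and 15.9 CPM to 9.03 and 8.64 CPM (log2 fold change -0.91, SE 0.15, adjusted p = 0.00093), as did IL33, PIGR and NOX1. Of these falls only that of NOX1 was not stable.

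Several groups of core cell machinery held no called gene. Among 516 tested genes of the cytosolic and mitochondrial ribosome, the respiratory chain, the mitochondrial genome, the proteasome, the cytosolic chaperones and the histones, 0 passed edgeR's test. Group medians ran from -0.20 for the mitochondrially encoded genes to -0.01. Over all genes 2520 had an unadjusted p under 0.05, and the threshold used here does not show that these groups stayed the same. Of 64 genes of the cell cycle and DNA replication, CDK6 rose and CCND2 fell (3.12%), and both calls were lost when 1 library was left out. By gene class, 318 protein-coding genes rose and 204 fell of 13475 tested (3.87%), 9 and 7 of 2788 long noncoding genes (0.574%), and 3 and 0 of 1436 pseudogenes (0.209%).

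**Figure D4:**
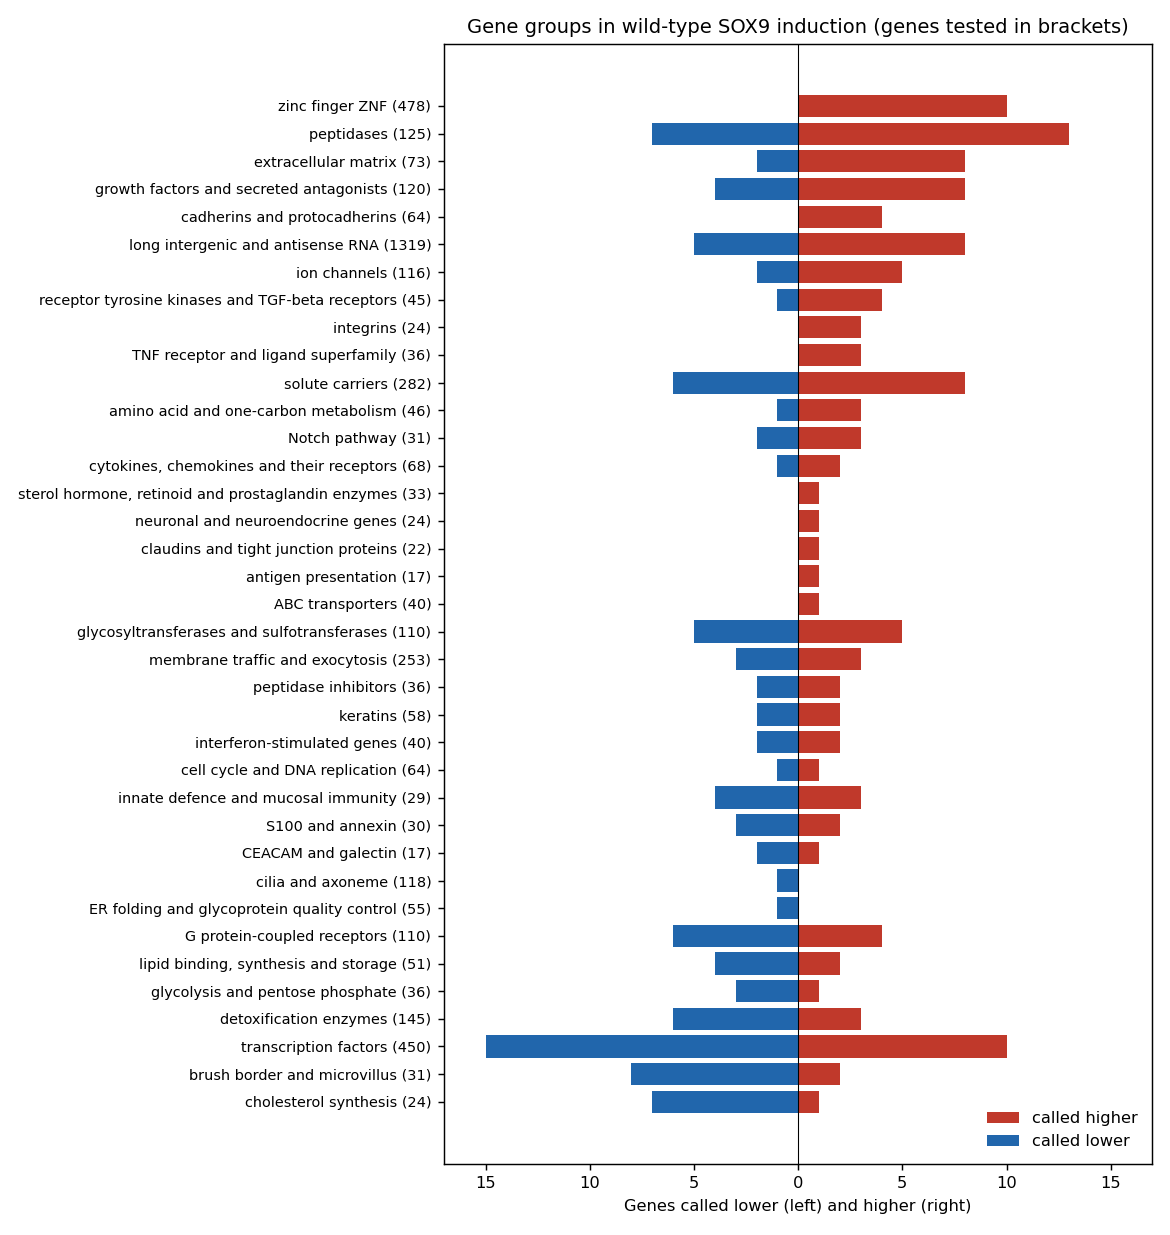
Number of genes called higher (red, to the right) and lower (blue, to the left) in functional groups with at least 1 call, with the number of tested members in parentheses. Peptidases and matrix genes have more higher than lower members, while brush border genes (2 higher, 8 lower) and cholesterol synthesis genes (1 higher, 7 lower) have more lower ones. The groups were chosen with earlier results of these data known.

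Promoter sequences were read for the genes with a RefSeq entry (GRCh38.p14), from 250 bases before to 50 bases after the annotated start. The SOX cores ACAAAG and ACAATG were searched on both strands, and a promoter with several matches was counted once. Of 541 called genes 424 had a promoter entry. Either core was present in 60 of 260 raised genes (23.1%, exact 95% binomial interval 18.1 to 28.7), in 42 of 164 lowered genes (25.6%, 19.1 to 33) and in 1995 of 11951 tested genes with an entry (16.7%, 16 to 17.4). ACAAAG alone was in 15.4% of raised, 21.3% of lowered and 11.3% of all promoters, and ACAATG in 10.4%, 5.49% and 6.31%. The median GC content was 64.7%, 63% and 65%. A 6-base match is a description of these letters, and no binding was measured. The promoters of 2 strongly raised genes, NEDD9 and HMGCS1, and of 2 strongly lowered ones, GREM1 and IL33, are printed because each holds a core. All are written 5′ to 3′ on the strand of the gene, in lower case, with the core in capitals (CTTTGT is ACAAAG read on the other strand). NEDD9 lies at chr6:11382299-11382598 on the minus strand, HMGCS1 at chr5:43313363-43313662 on the minus strand, GREM1 at chr15:32717754-32718053 on the plus strand and IL33 at chr9:6214899-6215198 on the plus strand. The RefSeq start of IL33 lies upstream of the gene start in the deposited table.
NEDD9: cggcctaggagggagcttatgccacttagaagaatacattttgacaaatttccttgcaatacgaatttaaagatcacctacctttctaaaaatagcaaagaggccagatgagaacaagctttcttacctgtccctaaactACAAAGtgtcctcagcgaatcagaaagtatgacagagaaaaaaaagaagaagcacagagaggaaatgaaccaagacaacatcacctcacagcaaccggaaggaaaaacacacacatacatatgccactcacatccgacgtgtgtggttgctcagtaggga
HMGCS1: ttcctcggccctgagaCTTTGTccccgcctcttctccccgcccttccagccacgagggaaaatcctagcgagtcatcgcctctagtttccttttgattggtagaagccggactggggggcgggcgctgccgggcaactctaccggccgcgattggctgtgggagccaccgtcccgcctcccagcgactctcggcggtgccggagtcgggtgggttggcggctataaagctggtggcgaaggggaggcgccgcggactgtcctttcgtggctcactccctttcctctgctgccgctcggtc
GREM1: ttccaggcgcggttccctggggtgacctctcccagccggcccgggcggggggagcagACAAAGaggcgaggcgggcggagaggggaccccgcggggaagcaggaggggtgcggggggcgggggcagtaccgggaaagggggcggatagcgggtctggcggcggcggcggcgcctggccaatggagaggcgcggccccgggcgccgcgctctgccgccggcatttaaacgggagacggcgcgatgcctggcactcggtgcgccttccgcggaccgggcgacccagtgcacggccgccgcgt
IL33: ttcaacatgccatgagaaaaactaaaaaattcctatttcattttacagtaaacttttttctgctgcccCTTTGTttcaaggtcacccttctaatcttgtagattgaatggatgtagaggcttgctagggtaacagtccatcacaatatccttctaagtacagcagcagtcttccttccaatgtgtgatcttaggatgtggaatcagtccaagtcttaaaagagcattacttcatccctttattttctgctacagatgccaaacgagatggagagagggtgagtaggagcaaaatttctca
NEDD9 and GREM1 carry the core as ACAAAG, and HMGCS1 and IL33 carry it on the other strand. These genes were picked for holding a core, with raised and lowered ones taken alike. That both directions appear was therefore set by the choice, and no promoter with ACAATG is printed.

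The same treatment in the other lines called few genes. Doxycycline in the GFP line called 0 genes by edgeR (0%; 580 with an unadjusted p under 0.05), and in the M303 line 1 (0.00549%; 662 unadjusted). The change in the SOX9 line minus that in the GFP line, tested as an interaction, passed for 163 genes (0.895%), of which 115 were higher (0.631%) and 48 lower (0.263%). It passed for 95 genes without the second induced SOX9-line library and for 108 without the first. The number of lower genes was 25 without that second library, 29 without the second uninduced GFP-line library and 103 without the first. Among the 330 raised genes 113 also passed this interaction test, and among the 211 lowered genes 48 did, so for most of the 541 a difference from the GFP line was not shown. The median log2 fold change of the raised genes was 0.59 in the SOX9 line, -0.01 in the GFP line and 0.09 in the M303 line. For the lowered genes it was -0.57, -0.04 and -0.10, beside 0.01, 0.00 and 0.00 over all tested genes. In the M303 line 260 of the 330 raised genes were above 0 and 32 of the 211 lowered ones were, against 9138 of 18219 tested genes. In the GFP line the numbers were 159 and 69, against 9133. The called change compares SOX9-line libraries only, and these enter no group mean of the GFP or M303 line. All libraries share the scaling, the filter and the estimate of spread, so the calls and these values are not wholly separate.

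Individual genes showed this in different degree. The SOX9 count itself rose in the M303 line by a log2 fold change of 1.14, close to the 1.00 of the SOX9 line, with -0.03 in the GFP line. EDAR had 2.60 in the SOX9 line, 1.35 in the M303 line and 0.25 in the GFP line. APCDD1 had 1.98, 0.52 and 0.16 in the same order, and VCAN 1.23, 0.51 and 0.13. PLEKHS1, NEDD9, SLC6A14 and HMGCS1 had 0.34, 0.03, 0.00 and -0.14 in the M303 line. Among lowered genes NEURL1 had -1.55 in the SOX9 line, -0.53 in the M303 line and -0.02 in the GFP line, and IL33 -1.01, -0.24 and 0.04. None of these M303 values apart from that of SOX9 was called, and differences between the SOX9 and M303 lines were not tested for these genes.

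**Figure D5:**
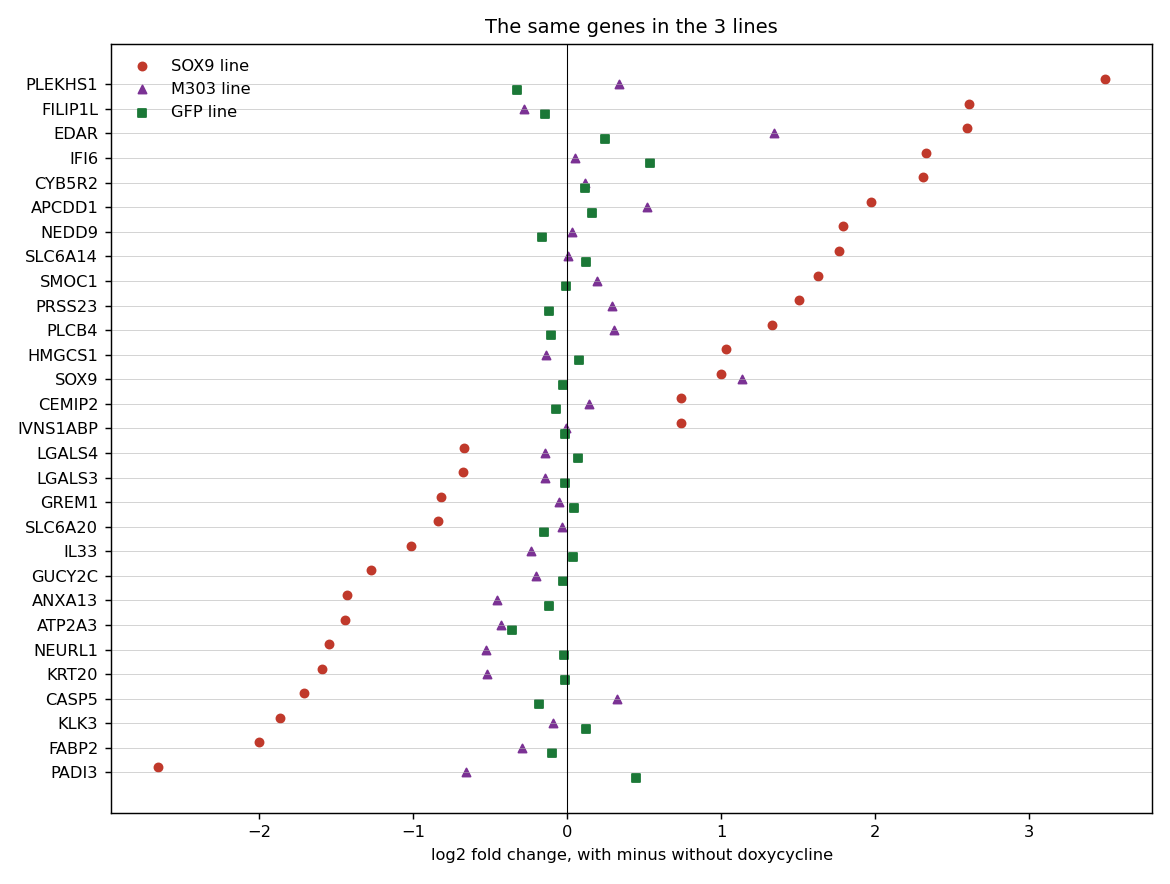
Fitted log2 fold change with against without doxycycline for the genes of the plot by library, in the SOX9 line (red circles), the M303 line (purple triangles) and the GFP line (green squares). Apart from SOX9 (1.14) and EDAR (1.35) in the M303 line, the GFP and M303 points lie between -0.65 (PADI3 in the M303 line) and 0.54 (IFI6 in the GFP line).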

How the data were processed

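Poly(A) RNA was sequenced as read pairs of 150 bases, per the labels' protocols. The authors deposited 1 table of raw read counts per gene. STAR 2.7.0a was the aligner and hg38 the build, as the submitters' processing notes record, and per the file headers reads were counted with featureCounts 2.0.1 on the annotation of Ensembl release 101, without paired-end, strand or multimapping options. No option to assign a read to several genes was recorded either. Mates were therefore counted singly, reads over exons of more than 1 gene can be lost whatever their strand, and close copies lose the reads that map to each of them. The authors' deposited gene length, another column of that table, was used for RPKM. The table has 60671 genes, 0 entries that name no gene and 0 unused library columns. Totals were 31012775 to 48529770 per library, and no duplicates matched within counting noise.

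All 12 libraries entered 1 edgeR 4.0.16 model (R 4.3.3) with 1 mean per group: TMM scaling (factors 0.981 to 1.02), filterByExpr (minimum count 10), robust quasi-likelihood F-test with 6 residual degrees of freedom, biological coefficient of variation 10.6%. Adjusted p values are Benjamini-Hochberg values from this test over 18219 genes. In counts simulated from these libraries for the SOX9 comparison (18219 genes), 95% of 100 genes changed 2-fold and 100% of 100 changed 4-fold were called, with 11 false calls. The changed genes were drawn only from those with a mean above 1 CPM, and every simulated gene had the same spread between libraries. The simulation therefore does not cover scarcer genes or a spread that differs by gene. CPM are from the same TMM factors. Each SE of a log2 fold change is its absolute value divided by the square root of the F statistic of this test. It is thus worked back from the test and not estimated directly by the model. The comparisons were SOX9 induction and its difference from GFP induction. The alternatives were RLE scaling, DESeq2 1.42.0, no or a stricter filter, a replicate block, the SOX9 line alone and each library left out.

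Members, groups and lists were chosen with earlier results of these data known. Named genes are, outside Paneth, goblet and stem lists and with no overlap between groups, the 5 highest and 5 lowest fold changes per starting level, the smallest p per functional group and direction, the 5 largest gains and losses, and SOX9, LYZ and MUC2. Some items that this selects are not reported here. Promoters are from RefSeq (GRCh38.p14). Proteins and genome sequence were not used here.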

Additional observations from a re-analysis of the deposited data

Results flagged for a closer look

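The induction of SOX9 differed from that of GFP, by the interaction test, for 163 genes, which is 0.895% of those tested. Of the genes that the naming rule selects and that are reported, 53 passed this test, 33 with a positive and 20 with a negative difference. The difference is the log2 fold change in the SOX9 line minus that in the GFP line. The rule selects 89 genes in all, some of them not reported, by their change in the SOX9 line. That change is part of the difference, so a high share that passes is in part set by the choice. ART3, PADI3, CDX2, CEMIP and NOD2 are among the named genes that did not pass. Of the raised genes named by starting level the differences were 3.82 for PLEKHS1, 2.75 for FILIP1L, 2.35 for EDAR, 2.19 for CYB5R2, 1.96 for NEDD9, 1.81 for APCDD1, 1.80 for IFI6 and 1.64 for SLC6A14. For the rest of these they were 1.64 for SMOC1, 1.63 for PRSS23, 1.44 for PLCB4, 1.03 for SOX9, 0.95 for HMGCS1, 0.81 for CEMIP2 and 0.75 for IVNS1ABP. As examples of the error, the SE was 0.43 for PLEKHS1 (adjusted p = 3.89e-05), 0.17 for NEDD9 (adjusted p = 1.37e-06) and 0.10 for PRSS23 (adjusted p = 1.02e-08). Of the raised genes named as markers, by functional group or by amount, the differences were 3.76 for TCN1, 3.48 for LYZ, 2.40 for NTRK2, 1.92 for KRT6B, 1.72 for CD74, 1.20 for IL17RD, 1.11 for ITGB8 and 1.09 for ADRA2A. Smaller ones were 1.04 for SLC5A1, 0.99 for CLDN1, 0.97 for TNFRSF11A, 0.85 for KCNN4, 0.81 for ST3GAL4, 0.79 for MUC13, 0.73 for CDH11, 0.67 for TIMP3, 0.61 for CDK6 and 0.48 for JAG1.

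On the negative side the genes named by starting level had differences of -1.99 for KLK3, -1.91 for FABP2, -1.58 for KRT20, -1.53 for NEURL1, -1.31 for ANXA13 and -1.25 for GUCY2C, then -1.08 for ATP2A3, -1.05 for IL33, -0.86 for GREM1, -0.74 for LGALS4, -0.69 for SLC6A20 and -0.66 for LGALS3. The SE was 0.22 for NEURL1 (adjusted p = 0.000415) and 0.13 for IL33 (adjusted p = 9e-05). Among those named otherwise the differences were -1.42 for MUC2, -1.23 for P2RY2, -0.90 for AKR1B10, -0.80 for LINC02672, -0.64 for KLF4, -0.60 for OAS1, -0.48 for PIGR and -0.40 for INSIG1. OAS1, an interferon-induced enzyme, and CDK6, a cell cycle kinase, lost their calls for SOX9 induction itself when 1 library was left out, at adjusted p = 0.0701 for OAS1 and 0.121 for CDK6. Every construct has its own line, and construct and line cannot be told apart.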

How the results depend on the processing

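SOX9 induction called 541 genes. With RLE scaling it called 542 (median shift over all genes -0.0069 on the log2 scale), with DESeq2 772 (411 higher, 361 lower), without a filter 750 (412 higher, 338 lower) and with the stricter filter 577, and on the SOX9 line alone 533. Leaving out 1 library gave 231 to 527 calls, of which 227 and 365 were among the 541. The calls were 270 without the first induced library, 231 without the second induced library and 301 without the second uninduced library. The cause was not tested. DESeq2 called 536 of the 541. With a replicate block it was 446, of which 429 were among the 541. Replicate numbers were not shown to pair libraries: the correlation of same-numbered deviations was 0.0568 in the SOX9 line, -0.0453 in the GFP line and -0.0786 in the M303 line. The SOX9 minus GFP difference called 163 genes: 270 without a filter, where 33013 genes were tested, 228 with DESeq2, 142 with the replicate block, and 95 to 229 without 1 library (108 without the first induced SOX9 library, 95 without the second induced one, 111 without the second and 229 without the first uninduced GFP library). The causes were not tested. Where a library was left out, a lone sample was assumed to vary like the other groups. For single named genes, 795 of 883 values kept direction and call, 88 lost the call and 0 reversed; 60 of 89 named genes and 74 of the 118 genes called at 2-fold or more stayed called without each SOX9-line library. By RPKM in place of CPM, the percent higher from the lowest to the highest level was 0.825, 2.55, 2.27 and 1.10, and the percent lower 0.206, 1.19, 2.38 and 4.11. The change comes from the assignment of genes to levels. Precision was lowest below 1 CPM, where the median SE was 0.99. Depth itself was not varied.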

Other observations

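Long noncoding and antisense genes contributed few calls. Of 1319 long intergenic and antisense RNA genes, 8 rose and 5 fell (0.986%), and 4 were stable: CD300LD-AS1, SLC9A3-AS1 and HDAC2-AS2 rose and LINC02672 fell. In membrane traffic and exocytosis, 3 of 253 rose and 3 fell (2.37%), none of them stable. Of 55 genes of protein folding in the endoplasmic reticulum, SDF2L1 fell, and its call was lost without the second induced library at adjusted p = 0.425. Neither cilia genes (0 higher and 1 lower of 118) nor the genes for iron and other metals (0 called of 28) were a place of many calls. CD109, a membrane protein that binds TGF-beta, was stable and stood at 39 and 36.3 CPM without doxycycline and 89.8 and 88.2 CPM with it (log2 fold change 1.24, SE 0.10, adjusted p = 9.75e-08), and it overlaps CD109-AS1 on the opposite strand. The thromboxane synthase TBXAS1 rose from 6.13 and 9.66 CPM to 16.9 and 16.5 CPM (log2 fold change 1.08, SE 0.19, adjusted p = 0.00174), and LAMP2, a protein of the lysosomal membrane, rose from 126 and 113 CPM to 164 and 160 CPM (log2 fold change 0.44, SE 0.08, adjusted p = 0.00163). CD109 and LAMP2 were chosen after their values were seen.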
